A study of Rattus norvegicus with 6 samples.

Results

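The glucocorticoid receptor and 5 genes known to respond to it are described here in neonatal rat ventricular myocytes (NRVMs) cultured with serum from children. The 6 genes are Nr3c1, which encodes the receptor, and Mt2A, Errfi1, Arrdc2, Klf9 and Map3k6. They were chosen by symbol, with the difference between dilated cardiomyopathy (DCM) and nonfailing (NF) serum in this same table already known. They take up 7 of its 3221 rows, since Nr3c1 has 2. Their values in NF and DCM serum are therefore a description, and no test of that difference is given for any of them. The cells are heart muscle cells taken from the ventricles of Sprague-Dawley rats, labelled as postnatal day 2. The labels give 1% serum for 72 hours in both groups. RNA-Seq was performed on 3 NF serum libraries and 3 DCM serum libraries. They are paired as in the names of the deposited fold change columns. Each pair is taken to share a cell preparation, although the labels name no preparation. The 3 preparations are called A, B and C, and the RNA of 2 plates was pooled for every library. Each library carries 2 serum numbers in its label, so it may join cells treated with 2 different sera. The serum numbers in the labels are the same for the NF libraries of preparations B and C and differ among the 3 DCM libraries, so the spread between NF libraries may hold less variation of serum than that between DCM libraries. No library without human serum and none with an added steroid or receptor blocker was analysed here.

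The glucocorticoid receptor is a transcription factor of the nuclear receptor family. Without hormone it is held in the cytoplasm by heat shock protein chaperones. Once it binds cortisol or corticosterone it enters the nucleus, where it activates genes by binding a palindromic response element and lowers others, among them inflammatory genes driven by NF-kappa B and AP-1. In heart muscle the receptor is known for its part in the maturation of fetal cardiomyocytes, and it shares its ligands with the mineralocorticoid receptor. Hormone exposure also lowers the receptor's own transcript in many cell types.

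Promoter sequences were examined first, because the response element is a matter of sequence. RefSeq promoters of the rat build GRCr8, with 250 bases before and 50 after each annotated start, matched all 6 genes and gave 7 promoters, with 2 starts for Nr3c1. They were searched on both strands for AGAACA and TGTTCT spaced 3 bases apart, which sets 12 bases of a 15-base window. None of the 7 promoters held this element with at most 2 mismatches, against 1.87% of 33469 rat promoters and 0.620% of the 2579 promoters of genes in the table. None held it with at most 1 mismatch, and none held the single hexamer TGTTCT, which 20.7% of all promoters and 12.5% of those of genes in the table hold. These letters are thus not in these windows, which says nothing about elements elsewhere in the genes. The windows closest to the element in the 5 target genes are shown to give the distance from it, 5′ to 3′ on the strand of the gene, with capitals for bases that match:
Errfi1, chr5:166606598-166606612, plus strand: AaAACccggTGTcCT
Map3k6, chr5:150724063-150724077, plus strand: gGcACAggcTGTTCc
Arrdc2, chr16:18635738-18635752, plus strand: AGAcCAcgccccTCT
Mt2A, chr19:10838813-10838827, minus strand: AGAAgggcgTGTgCa
Klf9, chr1:230126427-230126441, plus strand: gGAACggaacGgTCg
The windows of Errfi1 and Map3k6 matched 9 of the 12 bases, those of Arrdc2 and Mt2A 8, and that of Klf9 7. At least 9 matches were found in 14.7% of all promoters, at least 8 in 58.2% and at least 7 in 94.8%, and for promoters of genes in the table these shares were 8.96%, 42.3% and 89.3%.

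The Mt2A promoter stood out by another motif. Metallothioneins are small cysteine-rich proteins that bind zinc, copper and cadmium, and their genes are switched on through metal response elements, bound by the transcription factor MTF1. The 250 bases before the Mt2A start (chr19:10838709-10838958, minus strand, GRCr8) are shown because they hold 4 matches to this element (TGCACNC or TGCGCNC on either strand), in capitals:
Mt2A: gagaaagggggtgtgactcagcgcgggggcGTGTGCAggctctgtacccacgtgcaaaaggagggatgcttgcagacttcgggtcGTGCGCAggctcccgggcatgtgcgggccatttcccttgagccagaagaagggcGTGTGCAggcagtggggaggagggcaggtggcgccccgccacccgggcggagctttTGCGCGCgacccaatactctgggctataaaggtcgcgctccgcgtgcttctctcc
The matches begin at positions -220, -165, -111 and -55 from the start, the first 3 on the opposite strand, and the match at -111 overlaps the window shown above for the receptor element. At least 1 match was found in 24.2% of all promoters and at least 4 in 0.439%, or 147 promoters. For promoters of genes in the table these shares were higher, 36.1% and 0.892%, or 23 promoters. Of the other members, 1 of the 2 Nr3c1 promoters held a single match, at position -33. Mt2A also held an E-box (CACGTG) at -202, a motif in 6.42% of all promoters and 9.27% of those of genes in the table, and a TATA box (TATAAA) at -31. Errfi1 had a TATA box at -35, and 8.80% of all promoters and 3.76% of those of genes in the table hold one.

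**Figure D1:**
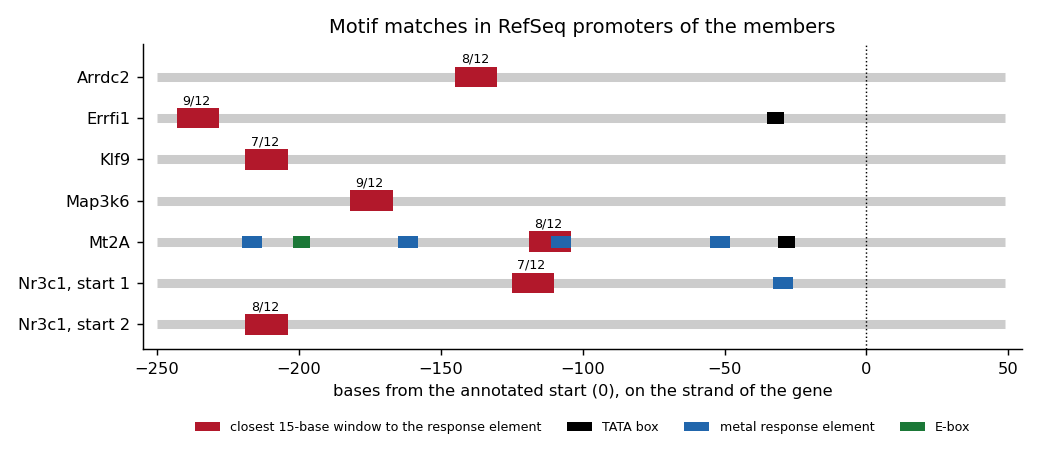
Motif matches along the RefSeq promoters of the receptor and its target genes, from 250 bases before to 50 after each annotated start (x axis, bases from the start). Red blocks are the closest 15-base window to the receptor element with the bases matched of 12, blue blocks metal response elements, green an E-box and black TATA boxes. Mt2A carries 4 metal response elements and no promoter carries a receptor element with at most 2 mismatches.

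Transcript levels are given as FPKM, which sets the fragments of a gene against the length of its exons and the sequencing depth, as the authors computed it. The deposited table holds only rows for which the q-value it lists, from the authors' test of DCM against NF serum, is under 0.10, and every one of the 3221 rows differs in the same direction in all 3 preparations (252 higher and 2969 lower with DCM serum). The same direction in 3 preparations is therefore a property of the table. Over the whole table, the log2 ratio of DCM to NF had a median of -0.17 in preparation A, -0.40 in B and -0.25 in C, and the median of the row means was -0.29. A ratio near these values is where most of the table lies.

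The receptor was lower with DCM serum in both of its rows. In the row of ENSRNOG00000014096, Nr3c1 measured 20.1, 16.3 and 18.1 FPKM with NF serum in preparations A, B and C, and 16.3, 9.74 and 12.3 FPKM with DCM serum. The 3 DCM libraries lay below the 3 NF libraries, although the DCM library of preparation A and the NF library of preparation B are equal after rounding. The means were 18.2 ± 1.89 and 12.8 ± 3.28 FPKM (SD, n = 3 each), and the log2 ratios were -0.30, -0.74 and -0.56, with a mean of -0.54 ± 0.22. After subtraction of each preparation's table median these ratios were -0.14, -0.34 and -0.32.

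In the row of ENSRNOG00000048800, Nr3c1 measured 25.0, 19.8 and 22.3 FPKM with NF serum and 24.8, 12.4 and 15.8 FPKM with DCM serum. The groups overlapped, since preparation A held nearly the same level in both sera, above 2 of the 3 NF libraries. The means were 22.4 ± 2.63 and 17.6 ± 6.42 FPKM (SD, n = 3 each), and the log2 ratios -0.01, -0.68 and -0.50 gave a mean of -0.40 ± 0.34. Relative to the table medians the ratio was 0.15 in preparation A, -0.28 in B and -0.25 in C, so the direction in preparation A turned.

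The 2 rows follow each other across the 6 libraries but not in full. The second row was 1.25, 1.21 and 1.23 times the first with NF serum in preparations A, B and C, and 1.52, 1.27 and 1.29 times with DCM serum. The DCM library of preparation A thus stood apart from the other 5 libraries, which span 1.21 to 1.29. Fragments that fit both rows may have been divided between them, so neither row alone is a measure of the receptor's transcript, and the reference used here gives no Ensembl identifiers with which to place them. Of all 3221 rows, 25.7% had 3 DCM libraries below the 3 NF libraries, as 1 of the 2 Nr3c1 rows did. By size of decrease the rows ranked 601 and 1075 among 3221, well inside the body of lower genes.

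Mt2A, the metallothionein, was the most abundant of the target genes and had the largest mean ratio. It measured 48.7, 45.1 and 69.8 FPKM with NF serum in preparations A, B and C, and 157, 120 and 159 FPKM with DCM serum. Every DCM library was above every NF library. The means were 54.5 ± 13.4 and 145 ± 22.1 FPKM (SD, n = 3 each), with ratios of 3.23, 2.65 and 2.27. Mt2A was the only target gene whose ratio was largest in preparation A. Rat metallothionein genes are close in sequence, so fragments of a neighbouring copy could be counted here.

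Errfi1 encodes a cytoplasmic protein that binds activated ErbB receptors, blocks their kinase domain and so dampens EGF signalling. Its levels were 7.31, 3.82 and 4.44 FPKM with NF serum and 15, 10.9 and 12.4 FPKM with DCM serum. The groups did not overlap, and preparation A held the highest level in both sera. The means were 5.19 ± 1.86 and 12.8 ± 2.08 FPKM (SD, n = 3 each), and the ratios were 2.05, 2.85 and 2.80, the smallest where the NF level was highest.

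Arrdc2 belongs to the arrestin domain family, adaptors that link membrane proteins to ubiquitin ligases and endocytosis. It was expressed at a low level, 0.834, 1.31 and 1.33 FPKM with NF serum and 1.94, 2.64 and 3.64 FPKM with DCM serum. The groups did not overlap, and preparation A was lowest in both sera. The means were 1.16 ± 0.279 and 2.74 ± 0.855 FPKM (SD, n = 3 each), with ratios of 2.33, 2.02 and 2.75.

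Klf9, a zinc finger transcription factor that binds GC-rich promoter sequences, had the smallest ratio of the target genes and by far the least spread. It measured 16.0, 22.3 and 17.6 FPKM with NF serum and 24.9, 34.3 and 27.5 FPKM with DCM serum, so each DCM library was above each NF library while preparation B was highest in both sera. The means were 18.6 ± 3.30 and 28.9 ± 4.86 FPKM (SD, n = 3 each). The ratios were 1.55, 1.53 and 1.57, and the SD of its log2 ratio, 0.02, was the 39th smallest of 3221 rows. The table was selected for ratios that lie close together, so this rank is among rows that already vary little.

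Map3k6, a kinase of the ASK group that acts upstream of the JNK and p38 stress kinases, had the lowest level. It measured 1.44, 0.520 and 0.569 FPKM with NF serum and 2.76, 1.30 and 1.35 FPKM with DCM serum. The groups overlapped, because the NF library of preparation A was above the DCM libraries of preparations B and C. The means were 0.843 ± 0.518 and 1.80 ± 0.833 FPKM (SD, n = 3 each), and the ratios within preparations were 1.92, 2.49 and 2.36. Its highest NF level was 2.77 times its lowest, a spread at the 95.2 percentile of the table, while the same quotient was 1.23 and 1.27 for the Nr3c1 rows, 1.40 for Klf9, 1.55 for Mt2A, 1.59 for Arrdc2 and 1.91 for Errfi1.

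**Figure D2:**
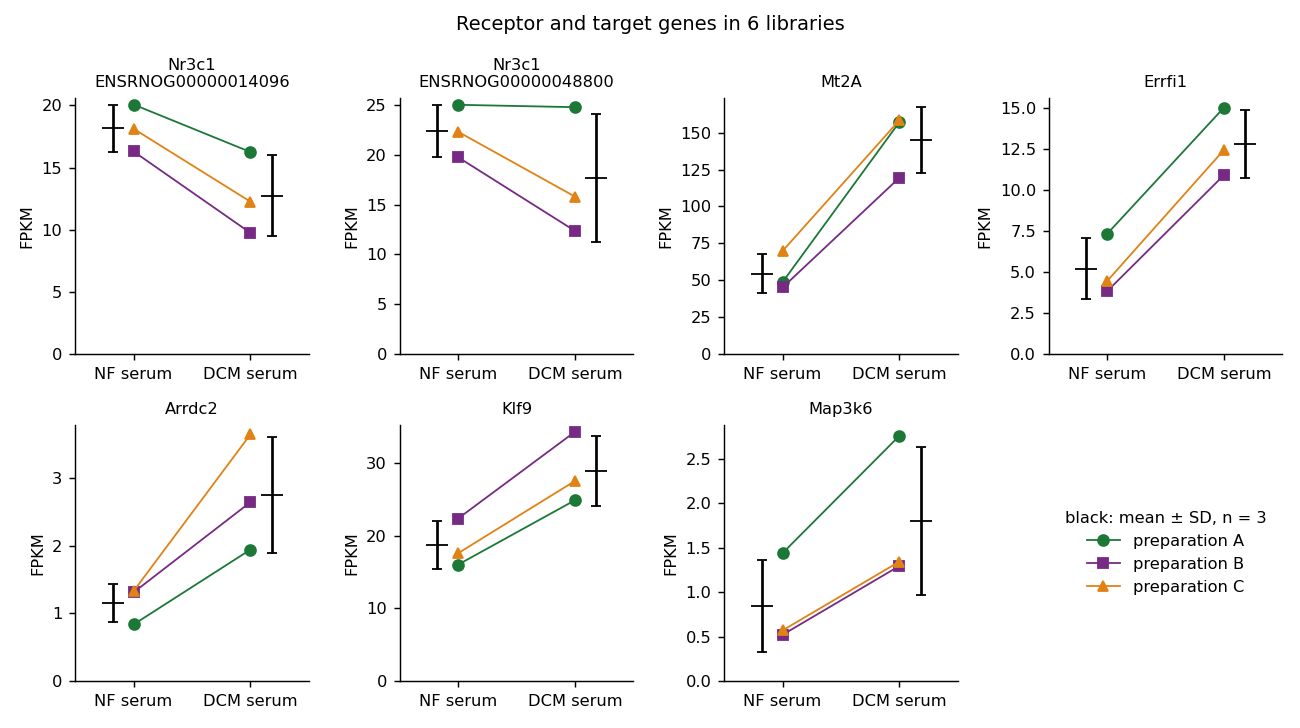
FPKM of the 2 Nr3c1 rows and the 5 target genes in each of the 6 libraries (y axes start at 0), with lines joining the NF and DCM serum libraries of a preparation and black bars for mean ± SD (n = 3). Mt2A, Errfi1, Arrdc2 and Klf9 have no overlap between sera, Map3k6 overlaps through preparation A, and the second Nr3c1 row is nearly level in preparation A.

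The order of the levels was read from FPKM, which is scaled by exon length. With NF serum Mt2A (54.5 FPKM) was followed by the second Nr3c1 row (22.4), Klf9 (18.6), the first Nr3c1 row (18.2), Errfi1 (5.19), Arrdc2 (1.16) and Map3k6 (0.843). Klf9 and both Nr3c1 rows had overlapping ranges of mean ± SD, as did Arrdc2 and Map3k6. With DCM serum Klf9 (28.9 FPKM) was above both Nr3c1 rows (17.6 and 12.8) in preparations B and C. In preparation A Klf9 was above the first Nr3c1 row and nearly level with the second (24.9 and 24.8 FPKM). Errfi1 (12.8) had the mean of the first Nr3c1 row. In the NF serum levels of the whole table, Mt2A was at the 92.7 percentile, Klf9 at 74.4, the Nr3c1 rows at 79.0 and 73.7, Errfi1 at 33.1, and Arrdc2 and Map3k6 at 2.61 and 1.27.

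The log2 ratios of the target genes had a mean over preparations of 1.43 ± 0.25 for Mt2A, 1.35 ± 0.27 for Errfi1, 1.23 ± 0.22 for Arrdc2, 1.17 ± 0.20 for Map3k6 and 0.63 ± 0.02 for Klf9 (SD, n = 3). The first 4 had overlapping ranges of mean ± SD, and Klf9 lay below them in every preparation. Among the 3221 rows Mt2A ranked 15 from the top, Errfi1 16, Arrdc2 21, Map3k6 24 and Klf9 60. No overlap between sera, with DCM above NF, was found in 4 of the 5 target genes and in 2.73% of all rows (88), but the genes were selected on this same contrast and nothing is read from the excess. The median ratio of the 5 genes was 1.04 in preparation A, 1.32 in B and 1.24 in C. Errfi1 and Map3k6 shared a pattern, with the smallest ratio in A and the largest in B, whereas Arrdc2 had its smallest in B and its largest in C.

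**Figure D3:**
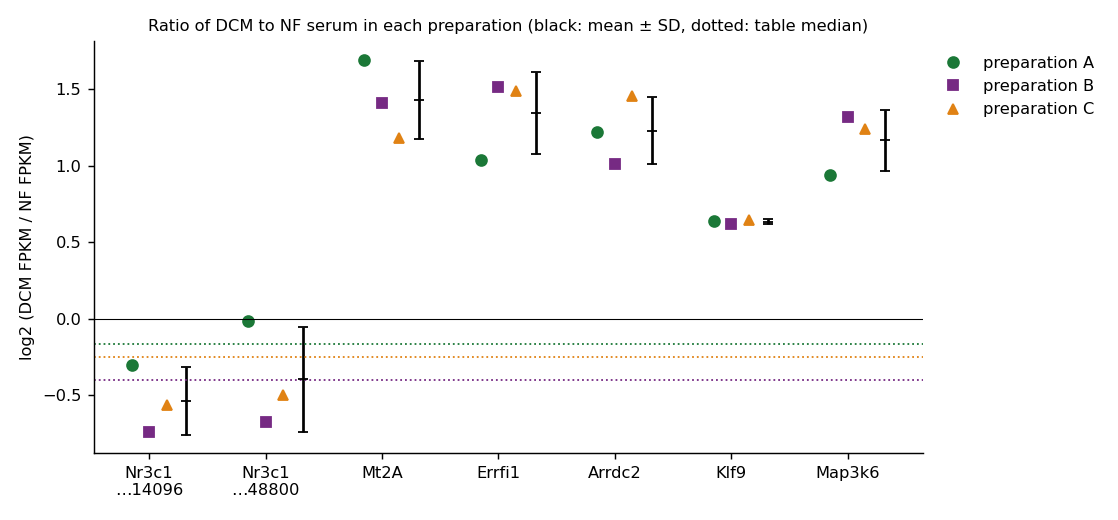
Log2 ratio of DCM to NF serum FPKM (y axis) in preparations A, B and C for each row, with black bars for mean ± SD (n = 3) and dotted lines for the table median of each preparation. The 5 target genes lie between 0.62 and 1.69, the 3 points of Klf9 nearly coincide, and preparation A of the second Nr3c1 row lies at -0.01, above its table median.

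**Figure D4:**
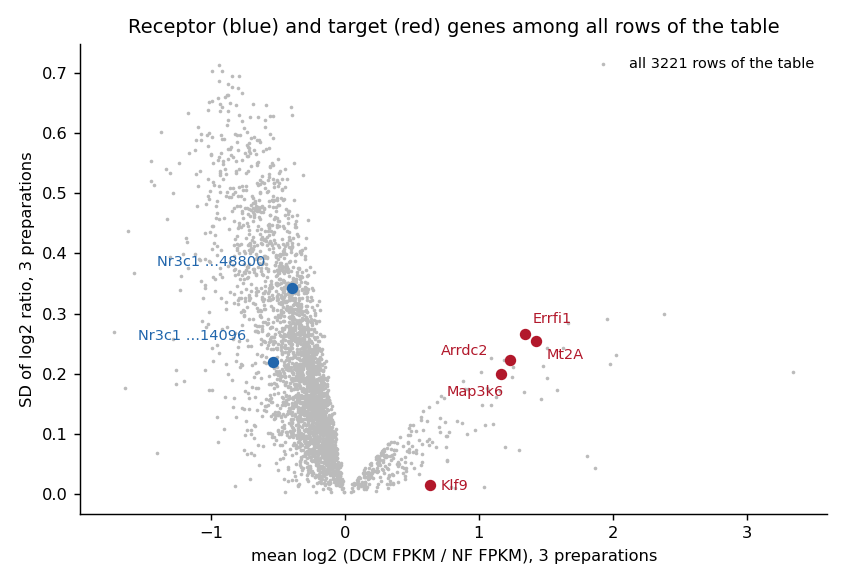
Mean over preparations of the log2 DCM/NF ratio (x axis) against its SD over 3 preparations (y axis) for all 3221 rows (grey), the Nr3c1 rows (blue) and the target genes (red). The Nr3c1 rows lie in the dense body of lower genes, 4 target genes lie among the few rows above 1 and Klf9 lies near the bottom edge with an SD of 0.02.

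Likeness between genes was described with Pearson's r of log2(FPKM + 1) over the 6 libraries, which share serum and preparation, so a high r can come from either. The 2 Nr3c1 rows had r = 0.952. Klf9 had r = -0.950 to the first Nr3c1 row and -0.829 to the second, and Arrdc2 had -0.848 and -0.733. The members were chosen with higher target genes and a lower receptor in DCM serum already known. That choice favours negative values, so no link between receptor and target is read from them. Map3k6 had r = -0.118 and 0.156 to the same rows. Among target genes the closest pair was Errfi1 and Map3k6 (r = 0.898), in both of which preparation A was highest in each serum, and the most distant were Map3k6 and Arrdc2 (r = 0.282) and Map3k6 and Klf9 (r = 0.284).

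Outside the 6 genes, the rows most like the first Nr3c1 row were Vamp3, a vesicle fusion protein (r = 0.998), and Apex1, a DNA repair endonuclease (r = 0.997). Those most like the second were Taldo1, transaldolase of the pentose phosphate pathway (r = 0.995), and Tirap, an adaptor of Toll-like receptors (r = 0.995). Rows with r over 0.95 numbered 127 and 132 for the Nr3c1 rows, against 10 for Mt2A, 10 for Arrdc2, 14 for Errfi1, 18 for Klf9 and 38 for Map3k6. Rows this like the receptor were thus more numerous than for any target gene, yet a small part of the 3221 rows. The table holds 2969 rows lower and 252 higher with DCM serum. A lower row therefore has more rows of its own direction to resemble, and nothing is read from these numbers.

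The row most like Mt2A was Lox, the lysyl oxidase that crosslinks collagen (r = 0.987), with AABR06083652.1, a locus without a gene name, next (r = 0.987). For Errfi1 these were RGD1564606 (r = 0.993) and Nucb2, a calcium-binding protein (r = 0.985). For Arrdc2 they were Cyp26b1, which degrades retinoic acid (r = 0.995), and Sox8, a transcription factor (r = 0.979). For Klf9 they were Epb4.1, a membrane skeleton protein (r = 0.994), and Ckmt2, the mitochondrial creatine kinase of muscle (r = 0.992). For Map3k6 they were AABR06029636.1 (r = 0.993) and Whamm, an activator of actin assembly (r = 0.991). Of these 14 rows, 10 stayed nearest without a pseudocount and 1 when ranked by Spearman's rho, which takes few distinct values over 6 libraries.

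The wider pathway was then examined in 9 lists of other genes, 336 in all, of which 59 are in the table. The other 277 have no row in this table, which is limited to rows with the authors' q-value under 0.10. Why each of them is absent was not tested. Sera were compared with limma on log2(FPKM + 1) with the preparation as a block, and p-values were adjusted by Benjamini-Hochberg over 3221 rows with a threshold of 0.10. By this test 6.24% of all rows rose with DCM serum (201) and 61.6% fell (1984), and passing it in a table already selected by the authors' test is no independent support. Without the block 0.124% of rows passed in either direction (4) and none of the 59 list genes did. An unadjusted limma p under 0.05 was found for 10 of the 59 and for 533 of all 3221 rows. In the lists 4 genes rose and 35 fell. When each preparation was centred on its table median, 5 list genes passed as higher and 6 as lower, against 252 and 344 of all 3221 rows. These medians lie below 0 in a table kept by the authors' q-value, so centring raises every ratio. Passing as higher with centring is therefore no stricter check of a gene that rose.

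Among genes that glucocorticoids induce, 4 of 64 listed are in the table. All of them passed and they split evenly, where 6.24% of all rows rose and 61.6% fell. Foxo1, a transcription factor of atrophy and fasting, rose from 4.37 ± 1.10 to 5.96 ± 1.51 FPKM (SD, n = 3 each), with log2 ratios of 0.47, 0.45 and 0.42 (limma adjusted p = 0.0320). Fbxo32, the muscle ubiquitin ligase atrogin-1 and a target of Foxo1, rose from 18.03 ± 5.25 to 24.5 ± 7.40 FPKM (0.47, 0.47 and 0.39, limma adjusted p = 0.0278). As with Klf9 the 3 ratios were close together, and preparation B was highest in both sera. Btg1, an antiproliferative gene, fell from 93.0 ± 8.80 to 71.0 ± 11.98 FPKM (log2 ratio -0.40 ± 0.20, limma adjusted p = 0.0453), and Edn1, which encodes the vasoconstrictor endothelin, fell from 6.28 ± 1.65 to 4.41 ± 1.80 FPKM (-0.55 ± 0.25, limma adjusted p = 0.0381). With centring, which raises every ratio, Foxo1 and Fbxo32 passed and Btg1 and Edn1 did not. With any 1 preparation left out Foxo1, Fbxo32 and Edn1 passed. The median log2 ratio of the 4 was 0.02, against -0.29 for the table.

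Among genes that glucocorticoids repress, 9 of 38 listed are in the table, of which 6 fell, 1 rose and 2 did not pass. Of all rows 61.6% fell and 6.24% rose. The median log2 ratio of the 9 was -0.48, against -0.29 for all rows. Vcam1, an adhesion molecule for leukocytes, measured 3.90, 6.90 and 12.2 FPKM with NF serum and 2.65, 2.59 and 6.32 with DCM serum. Its level fell in each preparation while the groups overlapped (log2 ratio -0.97 ± 0.43, limma adjusted p = 0.0321). Ccl2, the monocyte chemokine, measured 115, 33.8 and 67.3 FPKM with NF serum and 83.7, 14.7 and 34.2 with DCM serum (-0.88 ± 0.38, limma adjusted p = 0.0307). Cxcl1, a neutrophil chemokine, fell from 33.5 ± 6.68 to 21.0 ± 9.83 FPKM (-0.77 ± 0.47, limma adjusted p = 0.0428) and Irf1, an interferon response factor, from 5.58 ± 1.39 to 4.07 ± 1.54 FPKM (-0.51 ± 0.29, limma adjusted p = 0.0451). Fosl2, a subunit of AP-1, rose from 8.63 ± 0.697 to 11.1 ± 1.23 FPKM (0.36 ± 0.07, limma adjusted p = 0.0389). The NF-kappa B subunits Nfkb1 (-0.12 ± 0.08) and Rela (-0.09 ± 0.07) did not pass, and Ccl7 and Icam1 also fell. These 4 were named after their values were seen. With centring, which raises every ratio, Vcam1, Ccl2 and Cxcl1 still fell and Fosl2 passed as higher. Without preparation B, 3 genes of the list passed (Vcam1, Ccl2 and Fosl2), and without preparation C, 2 (Vcam1 and Ccl2).

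Of the chaperones that hold the receptor and the coregulators it recruits, 12 of 51 listed are in the table, with 1 higher, 6 lower and 5 not passing. Of all rows 61.6% fell, and the list's median log2 ratio of -0.28 was near the -0.29 of the table. Bag1, a co-chaperone of Hsp70 that dampens receptor activity, rose from 44.0 ± 9.25 to 54.8 ± 11.7 FPKM, with a ratio of nearly the same size in each preparation (0.32 ± 0.02, limma adjusted p = 0.0389). Smarca2, an ATPase of the SWI/SNF remodeller, fell by a log2 ratio of -0.49 ± 0.40 (limma adjusted p = 0.0660), and Fkbp4, the immunophilin that carries the receptor to the nucleus, by -0.32 ± 0.30 (limma adjusted p = 0.0868). Hspa4, an Hsp70 family member, and Hdac2, a histone deacetylase, fell by -0.30 ± 0.07 and -0.30 ± 0.06. With centring only Bag1 passed. Without preparation C none of the 12 did, and without preparation B only Bag1.

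Among other nuclear receptors, 6 of 47 listed are in the table, and 5 fell, where 61.6% of all rows fell. The median log2 ratio was -0.34, against -0.29 for the table. Nr3c2, the mineralocorticoid receptor, which binds the same hormones, measured 4.52, 2.99 and 3.13 FPKM with NF serum and 3.08, 1.65 and 2.05 with DCM serum. Its level fell in each preparation (log2 ratio -0.67 ± 0.16, limma adjusted p = 0.0278) although the groups overlapped, and it was the only one of the 6 that still passed with centring. The retinoic acid receptors Rara (-0.47 ± 0.40) and Rarb (-0.39 ± 0.12), the estrogen-related receptor Esrrg (-0.28 ± 0.04) and the clock repressor Nr1d2 (-0.28 ± 0.13) fell, and Rxra, the partner of retinoic acid receptors, did not pass (-0.29 ± 0.37, limma adjusted p = 0.142). With preparations A, B or C left out, 3, 1 and 2 of these genes passed, Nr3c2 each time.

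Relatives of the target genes were examined by family, with no test of a family as a whole. For Mt2A, 4 of 30 listed metallothionein and zinc genes are in the table, all of them zinc transporters. Only Slc30a4 passed, which fell (log2 ratio -0.34 ± 0.10, limma adjusted p = 0.0444), where 61.6% of all rows fell. With centring or without preparation C it did not pass (limma adjusted p = 0.164 for the latter). Slc30a1, the zinc exporter that MTF1 also regulates, had ratios of -0.01, -0.66 and -0.18 and did not pass, nor did Slc39a5 (-0.23 ± 0.11) and Slc30a5 (-0.11 ± 0.07). For Arrdc2, 3 of 16 listed arrestin domain genes and ligases are in the table and all fell, where 61.6% of all rows fell. They are Arrdc3 (-0.60 ± 0.39), Nedd4l (-0.50 ± 0.13) and Nedd4 (-0.20 ± 0.15). With centring Arrdc3 still passed as lower and Nedd4 lay above 0. Without preparation C only Nedd4l passed. Klf3, the only other KLF or SP gene of 25 listed, had a ratio of -0.07 ± 0.07 and did not pass.

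For Map3k6, 11 of 42 listed genes of the MAP3K family and the p38 and JNK arms are in the table. Of these 3 fell and 8 did not pass, where 61.6% of all rows fell. The median log2 ratio of the 11 was -0.13, against -0.29 for the table. Map3k8 (-0.95 ± 0.46), Map3k14 (-0.57 ± 0.34) and Map3k4 (-0.50 ± 0.37) fell, the first measuring 1.64, 2.22 and 2.44 FPKM with NF serum and 0.856, 0.840 and 1.73 with DCM serum. Map3k12 (-0.17 ± 0.08) did not pass, nor did Mapk9, the kinase JNK2 and the only other gene above 0 (0.14 ± 0.03, limma adjusted p = 0.129), which passed as higher with centring, when Map3k8 still fell. Without preparation B or C, 1 gene of this list passed, Map3k8.

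For Errfi1, all 9 of 28 listed ErbB receptors, ligands and regulators that are in the table fell, with a median log2 ratio of -0.44, where 61.6% of all rows fell. The ligands Ereg (-0.80 ± 0.45) and Areg (-0.75 ± 0.14) had the largest ratios without a pseudocount. Ereg was at a low level, 1.10 ± 0.183 FPKM with NF serum and 0.673 ± 0.288 with DCM serum (SD, n = 3 each). Areg measured 5.11, 1.07 and 1.12 FPKM with NF serum and 2.995, 0.580 and 0.738 with DCM serum, high in preparation A of both sera as Errfi1 and Map3k6 were. Adam10, a protease that sheds ErbB ligands, and Erbb2, the ligandless coreceptor, fell by -0.53 ± 0.43 and -0.47 ± 0.27. On the log2(FPKM + 1) scale of the test the order differed, with effects of -0.51 for Adam10, -0.43 for Areg and -0.34 for Ereg. With centring none of the 9 passed, and Grb2 and Socs5 lay above 0. With 1 preparation left out, 2 or 3 genes of the list passed, Areg each time.

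**Figure D5:**
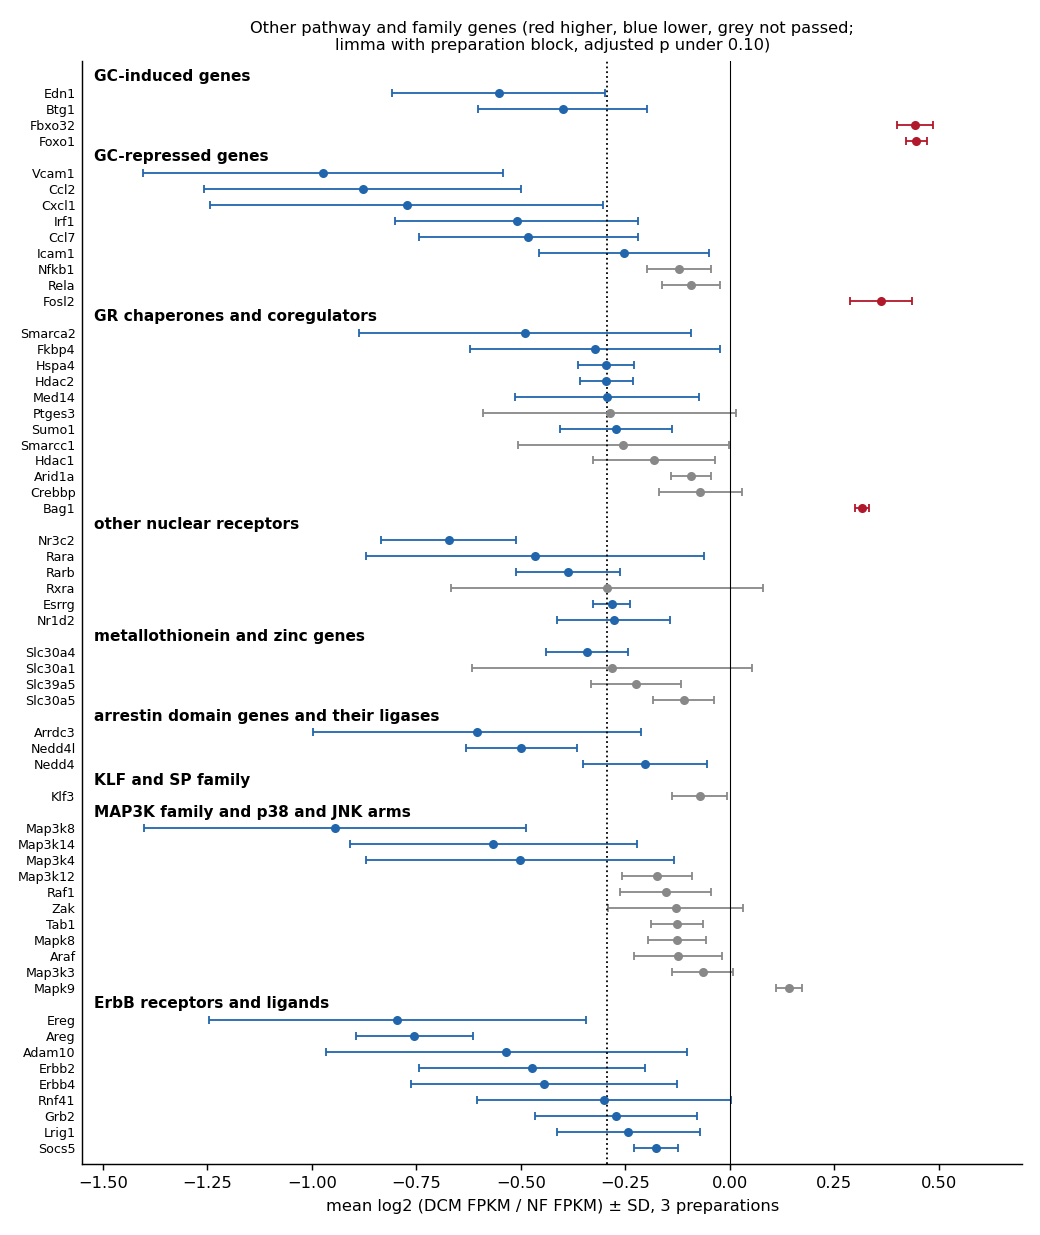
Mean ± SD over 3 preparations of the log2 DCM/NF ratio (x axis) for the 59 genes of the 9 lists that are in the table, red for higher and blue for lower at a limma adjusted p under 0.10 and grey for not passed, with a dotted line at the table median of -0.29. In the lists of other pathway and family genes 4 rose, Foxo1, Fbxo32, Fosl2 and Bag1, and 35 fell, many of them near the dotted line.

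Markers of cell types were present only in part, as 6 of 40 listed are in the table. Of the cardiomyocyte markers, Myl2 measured 10298 FPKM with NF serum and 8870 with DCM serum and Mybpc3 334 and 291. The fibroblast markers Postn (24.1 ± 17.8 and 17.0 ± 9.15 FPKM) and Lum (9.32 ± 8.98 and 6.21 ± 4.78) were lower with DCM serum. So was the smooth muscle marker Tagln (129 ± 16.6 and 101 ± 26.3). The log2 ratios of these markers, -0.40 ± 0.34, -0.47 ± 0.38 and -0.38 ± 0.27, lay near the table median of -0.29, and none passed with centring. Pecam1, an endothelial marker, was higher at a low level (1.92 ± 0.362 and 2.85 ± 0.454 FPKM, log2 ratio 0.57 ± 0.05), in the direction of the target genes. No macrophage, Schwann cell or erythroid marker is in the table. The part of cell composition in the values above was not tested, and in bulk RNA fewer cells of a type and less RNA per cell cannot be told apart.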

How the data were processed

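RNA of serum-treated NRVMs was sequenced in 3 NF and 3 DCM serum libraries. The authors checked directional mRNA reads with FastQC, mapped these with GSNAP to Rnor_5.0, computed FPKM with Cufflinks (versions are not given in the sources used here), removed transcripts with a variance under 0.1 and kept rows with their q-value under 0.10. Both limits were tested on the file and hold. The deposited table also has signed fold changes of each DCM library as scores, a summary fold ratio, and p-values and q-values of the authors. These hold the study's own comparison and were not used as values. The reads behind each FPKM value, and hence its counting error, are unknown. The paper's methods state 2% serum for 48 to 72 hours, and the labels 1% for 72 hours.

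Libraries were paired through the names of the fold change columns, which hold serum numbers and name no preparation. The paper's methods normalize within each preparation, so each pair was taken to share a preparation. After subtraction of group means, NF and DCM libraries of the same preparation correlated at 0.873, 0.743 and 0.741 over rows, against a range of -0.706 to 0.235 for different preparations. The authors kept rows by a test on values normalized within preparations. That choice itself favours high correlation within a pair, so these values are no independent check of the pairing. Ratios of members and of list genes were taken within a preparation without a pseudocount. All 3221 rows were fitted with limma 3.58.1 (lmFit and eBayes, R 4.3.3) on log2(FPKM + 1), serum plus preparation, with 2 residual and 3.11 prior degrees of freedom, and fold changes of low genes are understated on that scale. The serum numbers of the DCM libraries change together with the preparation. The p-values therefore measure how the difference between DCM and NF serum varies over the paired preparations. Serum donor and preparation cannot be told apart in that spread. The fit was tested on simulated data. Tables and motif searches used Python 3.11.

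The members and the gene lists were chosen with earlier results of these data known. Named genes are all members, every list gene in the table where a list has at most 8 and otherwise up to 4 in each direction with the largest ratio, and the 2 rows most like each member. List genes outside this rule were named after their values were seen. Promoters are RefSeq sequences of GRCr8, matched by symbol, and differ in build from the files. Alternatives were no block, pseudocounts of 0.1 and 0.01, a mean FPKM of at least 1, centring, robust eBayes, an adjusted p under 0.05 and each preparation left out.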

Additional observations from a re-analysis of the deposited data

How the results depend on the processing

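With centring, 3 of the 35 list genes that fell (Nedd4, Grb2 and Socs5) lay above 0, as did the second Nr3c1 row in preparation A. The count of rows that passed in the whole table, 2185, fell to 864 at an adjusted p under 0.05, to 596 with preparations centred on the table median and to 4 with no replicate block, and lay between 592 and 1304 with 1 preparation left out. The share of lower calls was 90.8% without centring and 57.7% with it. Without the replicate block, 0 genes passed in each of the 8 lists that had any call, which is the value for an unpaired fit of 3 against 3 libraries, where 533 of all rows had an unadjusted p under 0.05. With centring 2 glucocorticoid-induced and 4 repressed genes passed, 1 chaperone or coregulator, 1 other nuclear receptor, 1 arrestin domain gene, 0 zinc genes and 0 ErbB genes. At an adjusted p under 0.05 the counts were 3 chaperones or coregulators, 3 nuclear receptors, 1 MAP3K gene and 2 ErbB genes. Pseudocounts of 0.1 and 0.01 gave 2 zinc genes in place of 1. With 1 preparation left out, the counts ran from 2 to 6 for repressed genes, 0 to 6 for chaperones and coregulators, 1 to 3 for nuclear receptors, 0 to 1 for zinc genes, 1 to 2 for arrestin domain genes, 1 to 3 for the MAP3K list and 2 to 3 for ErbB genes. The median log2 ratio of the 5 target genes, 1.23, was 0.78 with a pseudocount of 1, which lowers the ratios of Arrdc2 and Map3k6, and 1.502 with centring. Spearman's rho kept 1 of the 14 most similar genes and log2 FPKM without a pseudocount 10. Robust eBayes and the filter on mean FPKM left every list count within 1.5 times. Why the counts move with these settings was not tested, beyond the smaller number of libraries when a preparation is left out. The depth behind each FPKM value is unknown, which limits Arrdc2 and Map3k6 most, as their levels are lowest.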
